A study of Mus musculus with 8 samples.

Results

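Genes of the endothelium and of vessel growth were followed in RNA from adult mouse testis, 4 libraries labelled Kpna2 knockout (genotype Kpna2-/-) and 4 labelled wild type. The list held 41 symbols: junction and surface proteins of endothelial cells, the ligands and receptors that guide vessel growth, and transcription factors of blood and lymphatic vessels. Members were found by matching symbols to the Ensembl identifiers of the expression matrix. Of the 41, 40 had a row among the 24988 genes, and Aplnr, the apelin receptor, was not analysed here. Kpna2 encodes an importin alpha, an adaptor for import of proteins into the nucleus, and the series concerned male infertility. The sources used here do not give the strain, the exact age, the kind of null allele, or whether each library came from 1 animal, and the p-values therefore cover library-to-library spread alone.

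Endothelial cells line blood and lymphatic vessels. Vascular endothelial growth factors bind the receptor tyrosine kinases Kdr, Flt1 and Flt4, and angiopoietins bind Tek, whose relative Tie1 and whose phosphatase Ptprb tune its signal. Notch ligands, ephrins and receptors of bone morphogenetic proteins set arterial, venous and sprouting states, and transcription factors of the ETS and SOX families drive endothelial genes. In the testis the vessels run between the seminiferous tubules, among the Leydig cells, and most RNA of the organ comes from germ cells inside the tubules.

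The first result concerns vessel receptors, so the sequences around their start sites are shown for the Tie and VEGF receptors. They run from 250 bases before to 50 bases after the annotated start, 5′ to 3′ on the gene's strand, from RefSeq on GRCm38.p6. Tek lies on chr4:94739039-94739338 (plus strand), Tie1 on chr4:118489800-118490099 (minus), Kdr on chr5:75978406-75978705 (minus), Flt1 on chr5:147725962-147726261 (minus) and Flt4 on chr11:49609429-49609728 (plus). Capitals mark ACAAT or its reverse complement ATTGT, a core bound by SOX factors, and AGGAAG or CTTCCT, a core bound by ETS factors. A SOX core cannot share letters with an ETS core, while cores of the same kind can overlap each other.
Tek: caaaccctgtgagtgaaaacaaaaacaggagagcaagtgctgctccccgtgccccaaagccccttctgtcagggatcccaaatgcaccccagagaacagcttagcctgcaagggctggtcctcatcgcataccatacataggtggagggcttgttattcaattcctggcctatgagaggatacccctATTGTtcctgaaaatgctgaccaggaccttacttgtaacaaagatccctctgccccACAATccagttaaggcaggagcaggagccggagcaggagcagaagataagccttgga
Tie1: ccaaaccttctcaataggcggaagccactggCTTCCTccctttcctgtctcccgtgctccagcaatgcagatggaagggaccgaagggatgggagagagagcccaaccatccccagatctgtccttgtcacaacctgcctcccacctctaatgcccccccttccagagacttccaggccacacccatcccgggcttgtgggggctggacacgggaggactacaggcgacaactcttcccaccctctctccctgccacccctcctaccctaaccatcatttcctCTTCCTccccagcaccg
Kdr: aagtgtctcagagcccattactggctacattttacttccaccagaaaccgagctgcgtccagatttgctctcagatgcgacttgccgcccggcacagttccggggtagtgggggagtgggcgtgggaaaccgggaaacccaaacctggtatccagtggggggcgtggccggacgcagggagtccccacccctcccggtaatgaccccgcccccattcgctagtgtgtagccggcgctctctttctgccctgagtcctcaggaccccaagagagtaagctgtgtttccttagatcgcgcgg
Flt1: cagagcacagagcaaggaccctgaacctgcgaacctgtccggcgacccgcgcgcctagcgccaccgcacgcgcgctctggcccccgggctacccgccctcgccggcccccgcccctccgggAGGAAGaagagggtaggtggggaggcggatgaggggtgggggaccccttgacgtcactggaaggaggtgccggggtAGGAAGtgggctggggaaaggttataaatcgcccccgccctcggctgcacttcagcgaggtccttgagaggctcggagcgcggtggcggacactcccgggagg
Flt4: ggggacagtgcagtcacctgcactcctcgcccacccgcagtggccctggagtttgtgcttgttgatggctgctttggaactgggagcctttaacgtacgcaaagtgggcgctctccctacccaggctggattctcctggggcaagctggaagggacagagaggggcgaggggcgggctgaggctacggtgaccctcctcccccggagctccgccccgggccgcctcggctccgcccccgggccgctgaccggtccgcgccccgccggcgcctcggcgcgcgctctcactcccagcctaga
The Tek window held 2 SOX cores and 0 ETS cores, the Tie1 and Flt1 windows 2 ETS cores each, and the Kdr and Flt4 windows had no match to these letters. Over all 32851 promoter windows of this length, 31% held the SOX core and 35.4% the ETS core. Promoters were matched for 21 of the 41 members, and of their 27 windows 8 held the SOX core and 10 the ETS core. These matches are descriptions of letters in a window.

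Levels are given as CPM, read counts scaled by library size, and log2 fold changes as knockout minus wild type on the scale of log2(CPM + 0.5). On this scale, low genes show less change than their true ratio. A gene is said to rise or fall where limma gave an adjusted p under 0.05 over all tested genes. The libraries held 31133443 to 37797812 reads. Kpna2 itself was higher in the libraries labelled knockout (13.9 ± 1.11 against 19.2 ± 2.76 CPM, SD, n = 4 each, log2 fold change 0.44, adjusted p = 0.0079). This is opposite to a loss of the transcript. As the kind of null allele is not given, the level of Kpna2 can neither bear out nor refute the label. Below, knockout and wild type stand for the libraries so labelled, and each direction is theirs. Among marker lists of other cells, 10 of 12 genes of fibroblasts and matrix were called (9 lower, 1 higher), against 16.9% of all tested genes. The mean of these 12 stood lowest in knockout replicate 4.

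Of the 40 members, 38 had a mean of at least 0.5 CPM and were tested. Tek, Ptprb and Vwf fell and Sox17 rose. That makes 4 of 38 members (10.5%), against 16.9% of all 22027 tested genes in limma, so the list held no larger share of called genes than the matrix as a whole. With edgeR 4 members were called, against 16.8% of all genes (8.61% higher, 8.16% lower), and with DESeq2 6, the same 4 with Cldn5 and Flt1, against 18.1% (9.31% higher, 8.75% lower). An unadjusted p under 0.05 in limma was reached by 10 members (26.3%), against 30.2% of all genes. By direction, in limma 3 of 38 fell (7.89%) against 8.32% of all genes, and 1 of 38 rose (2.63%) against 8.62%. The median log2 fold change was -0.08 over the members and -0.01 over all tested genes. Negative values were seen for 22 members and positive values for 16. The groups did not overlap for 5 members (13.2%), Flt1 beside the 4 that were called, against 20.9% of all tested genes. On the scale of log2(CPM + 0.5), the 95% interval lay within 1.5-fold on both sides for 27 of the 38. Low genes show less change on this scale, so their intervals reach further as ratios of plain CPM. In whole tissue, fewer cells of a type and less RNA per cell cannot be told apart.

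**Figure D1:**
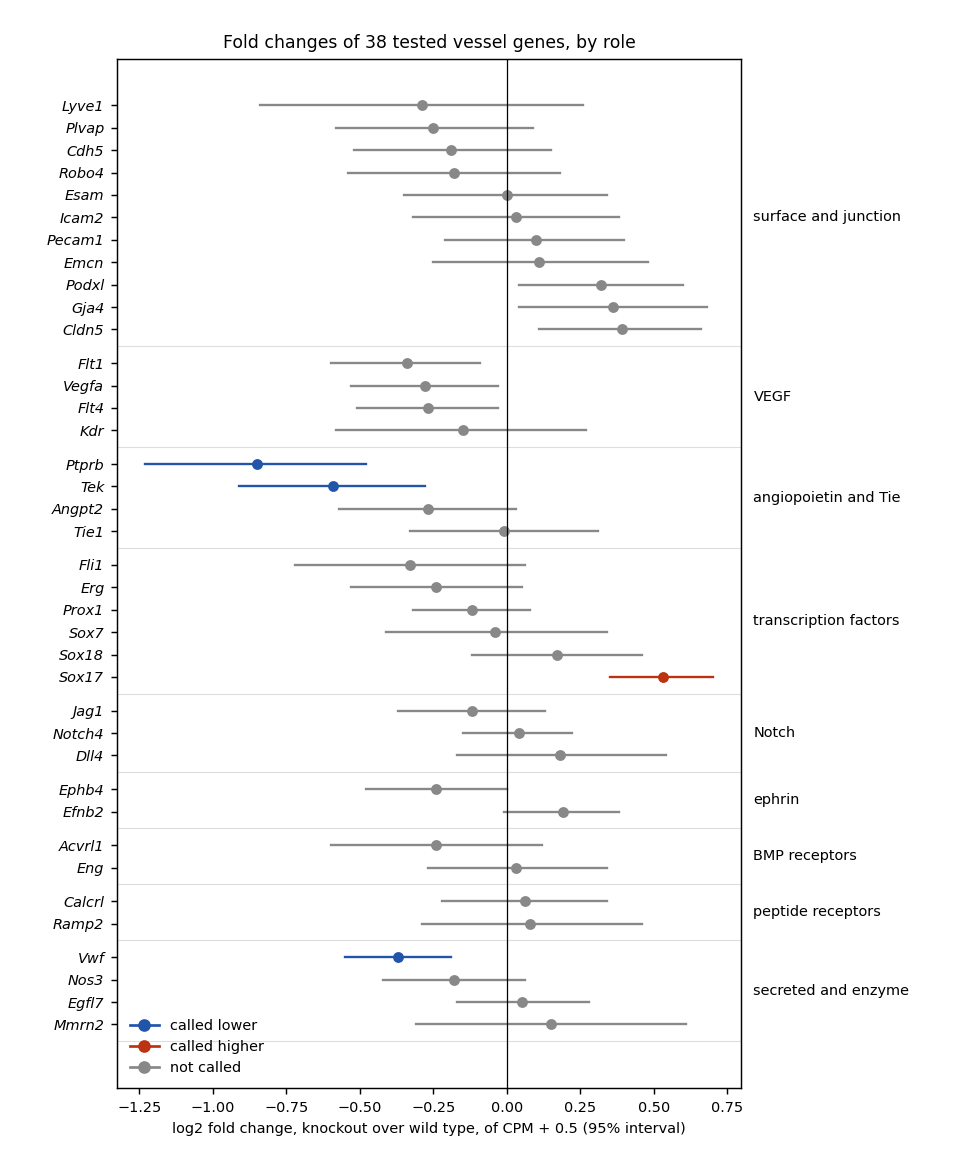
Log2 fold change (horizontal axis, of CPM + 0.5, knockout over wild type) with its 95% interval for the 38 tested vessel genes, grouped by role. Ptprb, Tek and Vwf (blue) lie below 0 and Sox17 (red) above it, and grey genes were not called.

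The 4 tested angiopoietin and Tie genes held 2 of the 3 falls. Of all tested genes 8.32% fell. Tek, the angiopoietin receptor of endothelial cells (ENSMUSG00000006386; chromosome 4, 94739289 to 94874976 in GRCm38), stood at 3.501, 4.01, 4.23 and 5.63 CPM in wild-type replicates 1 to 4. In knockout replicates 1 to 4 it stood at 2.98, 2.72, 2.97 and 2.10 CPM. Every library labelled knockout lay below every library labelled wild type. The means were 4.34 ± 0.912 and 2.69 ± 0.414 CPM (SD, n = 4 each), 1.61-fold lower, with a log2 fold change of -0.59, an SE of 0.15 and an adjusted p of 0.012. These values rest on 72 to 215 reads per library.

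Ptprb, the endothelial receptor phosphatase VE-PTP that dephosphorylates Tek (ENSMUSG00000020154; chromosome 10, 116275523 to 116389535), showed the largest fall of the 38 on this scale. Its values were 10.2, 10.9, 8.93 and 12.5 CPM in the wild-type libraries and 5.63, 4.98, 8.72 and 4.05 CPM in the knockout libraries. Knockout replicate 3 stood just under the lowest wild-type library, and the other 3 stood far below it. The means were 10.6 ± 1.46 and 5.84 ± 2.02 CPM, 1.82-fold lower, with a log2 fold change of -0.85, an SE of 0.17 and an adjusted p of 0.0039.

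Tie1, the orphan partner of Tek, was not called. It stood at 1.51, 1.68, 1.78 and 2.41 CPM in the wild-type libraries and 2.01, 1.86, 2.07 and 1.37 CPM in the knockout libraries, with overlapping groups. Its log2 fold change was -0.01, with a 95% interval of -0.33 to 0.31 (adjusted p = 0.98). Angpt2, the antagonist ligand made by endothelial cells, stood at 2.67, 2.89, 1.75 and 2.70 CPM and at 1.87, 1.95, 2.07 and 1.98 CPM, where 1 low wild-type library made the groups overlap (adjusted p = 0.22, and 0.045 without wild-type replicate 3). Angpt1, the agonist ligand, was too low to be tested, at 0.23 to 0.42 CPM in the wild-type libraries and 0.23 to 0.58 CPM in the knockout libraries; its counts were 7 to 20 reads.

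**Figure D2:**
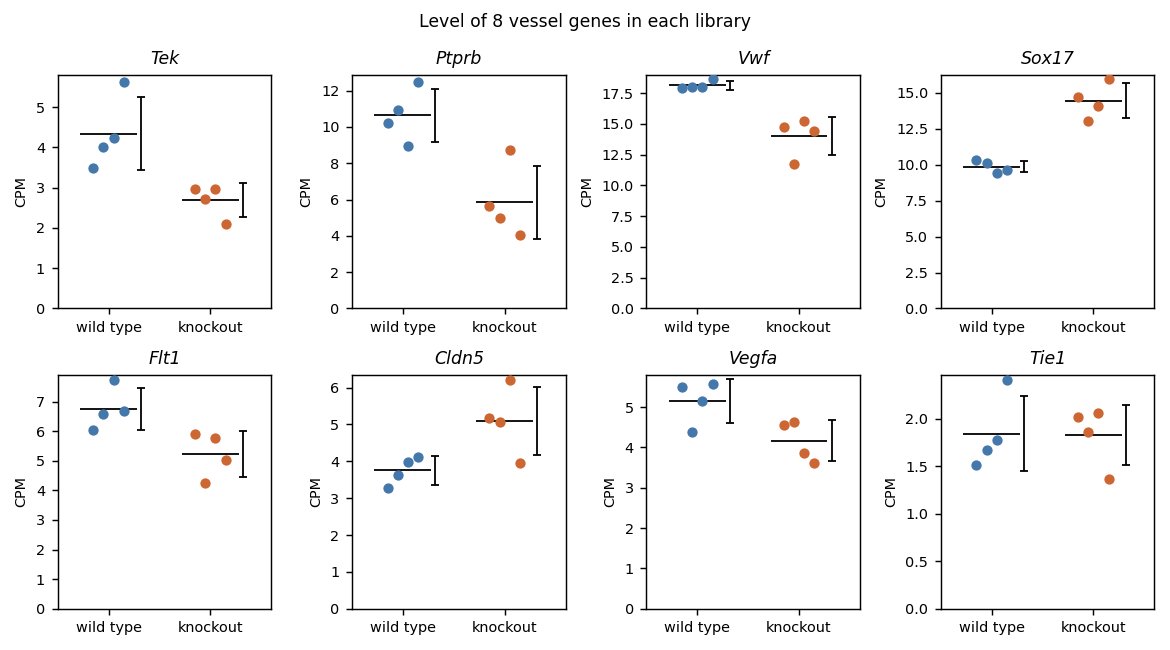
CPM (vertical axes, each from 0) of 8 vessel genes, with 1 point per library in the order of replicates 1 to 4 (blue wild type, orange knockout), the mean as a line and the SD as a bar beside it. The groups stand apart for Tek, Ptprb, Vwf, Sox17 and Flt1 and overlap for Cldn5, Vegfa and Tie1.

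None of the 4 tested VEGF ligands and receptors was called by limma or edgeR, and DESeq2 called 1, Flt1. In limma 3 of the 4 had an unadjusted p under 0.05, against 30.2% of all tested genes. The log2 fold changes of the 4 were all negative, from -0.34 to -0.15. Flt1, a receptor that binds VEGF tightly and signals weakly, stood at 6.02, 6.59, 7.73 and 6.68 CPM in the wild-type libraries and at 5.90, 4.23, 5.78 and 5.03 CPM in the knockout libraries. The groups did not overlap, by a small margin (log2 fold change -0.34, SE 0.12, adjusted p = 0.059, and 0.042 to 0.16 over the alternatives). Kdr, the main signalling receptor of VEGF in blood vessels, stood at 4.60, 2.92, 3.98 and 3.12 CPM and at 4.00, 4.43, 2.87 and 1.98 CPM, with wide overlap (log2 fold change -0.15, 95% interval -0.58 to 0.27). Flt4, the receptor of lymphatic vessel growth, was the most abundant of the receptors in CPM, at 14.4, 15.4, 14.2 and 13.2 and at 13.6, 9.01, 11.7 and 13.1 CPM. Its lowest value was that of knockout replicate 2, and knockout replicate 1 lay inside the wild-type range (adjusted p = 0.11).

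Vegfa, the growth factor itself, which Sertoli and Leydig cells also make, stood at 5.49, 4.39, 5.16 and 5.58 CPM in the wild-type libraries. Under the knockout label it stood at 4.55, 4.63, 3.87 and 3.61 CPM, so that wild-type replicate 2 was the 1 library of its group within the knockout range. Its log2 fold change was -0.28 with a 95% interval of -0.53 to -0.03 (adjusted p = 0.12). Vegfc, a ligand of Flt4, was too low to be tested: 0.39, 0.38, 0.21 and 0.37 CPM and 0.35, 0.20, 0.19 and 0.29 CPM, from 6 to 14 reads per library. Vegfd, a related growth factor outside the members, was tested and not called, at 3.79 ± 1.44 and 2.80 ± 1.07 CPM (log2 fold change -0.38, limma adjusted p = 0.35).

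Sox17 was the only called member of 6 transcription factors and the only called member that rose. Of all tested genes 16.9% were called and 8.62% rose. Sox17 encodes an SRY-related factor of arterial endothelium. Spermatogenic cells of the mouse are known to make Sox17 transcripts with and without the part that encodes the DNA-binding HMG box. It stood at 10.3, 10.1, 9.45 and 9.64 CPM in the wild-type libraries and at 14.7, 13.1, 14.1 and 15.9 CPM in the knockout libraries (ENSMUSG00000025902; chromosome 1, 4490931 to 4497354). The groups were far apart against their spread: 9.87 ± 0.395 and 14.5 ± 1.21 CPM, 1.46-fold higher, with a log2 fold change of 0.53, an SE of 0.08 and an adjusted p of 0.00048. Values per gene do not separate its transcripts. Gm37587, a gene on the opposite strand that shares 804 exon bases with Sox17, stood at 0.432 ± 0.112 and 0.671 ± 0.135 CPM (adjusted p = 0.15), and whether strand was used in counting is not stated in the sources used.

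The related factors Sox7 and Sox18, which act with Sox17 in vessel development, were not called. Sox7 stood at 1.90, 1.99, 2.54 and 3.33 CPM and at 2.01, 1.86, 2.32 and 3.26 CPM (log2 fold change -0.04, 95% interval -0.41 to 0.34), and replicate 4 was the highest library of each group. Sox18 stood at 1.87 ± 0.231 and 2.18 ± 0.363 CPM (log2 fold change 0.17, 95% interval -0.12 to 0.46). The ETS factors Erg and Fli1, which hold endothelial identity, had log2 fold changes of -0.24 and -0.33 (adjusted p = 0.26 and 0.24). Prox1, the factor that sets lymphatic identity, was abundant for this list and not called, at 11.7, 13.4, 12.5 and 12.1 CPM and at 13.8, 10.9, 10.5 and 10.6 CPM (adjusted p = 0.42). Lyve1, a hyaluronan receptor of lymphatic endothelium, stood far lower at 0.26 to 1.31 and 0.12 to 0.65 CPM.

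Vwf, von Willebrand factor, the clotting protein stored by endothelial cells (ENSMUSG00000001930; chromosome 6, 125546774 to 125686679), was the third member that fell. It stood at 17.95, 17.96, 17.96 and 18.7 CPM in the wild-type libraries and at 14.7, 11.7, 15.2 and 14.4 CPM in the knockout libraries. The wild-type libraries were nearly level, and every library labelled knockout lay below them. The means were 18.1 ± 0.350 and 14.0 ± 1.56 CPM, 1.29-fold lower (log2 fold change -0.37, SE 0.08, adjusted p = 0.0073).

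The other secreted proteins and the nitric oxide synthase Nos3 were not called. Nos3, which makes the vessel relaxant nitric oxide, stood at 9.92 ± 1.57 and 8.65 ± 0.735 CPM (adjusted p = 0.31), Egfl7, a matrix protein of sprouting vessels, at 5.79 ± 0.334 and 6.06 ± 0.708 CPM (adjusted p = 0.77), and Mmrn2, a matrix protein that binds VEGF, at 0.940 ± 0.168 and 1.18 ± 0.675 CPM (adjusted p = 0.69). Mmrn2 reached 2.16 CPM in knockout replicate 3 and 0.64 to 1.00 CPM in the other libraries of that group. Nos3 shares 294 exon bases with Atg9b and 1040 with Gm15587, both on the opposite strand. Egfl7 shares 264 exon bases (7.37% of its exons) with Gm20532 and 73 with Mir126a, both on the same strand. On the opposite strand Egfl7 shares 58 with Mir126b and 64 with Agpat2. Of these genes that overlap Egfl7, only Agpat2 had a row in the matrix, so the part of the others in its value could not be tested. Agpat2 fell from 129 ± 10.7 to 109 ± 8.97 CPM (adjusted p = 0.026), and its part in the value of Egfl7 was not tested.

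Among the 11 surface and junction genes, limma and edgeR called none and DESeq2 called 1, Cldn5. An unadjusted p under 0.05 in limma was reached by 3 of the 11, against 30.2% of all tested genes. Pecam1, the adhesion molecule by which endothelium is most often marked, stood at 2.31, 1.39, 1.93 and 2.18 CPM and at 2.13, 2.09, 2.32 and 1.86 CPM. Cdh5, the cadherin of endothelial junctions, stood at 5.40, 4.01, 4.26 and 4.35 CPM and at 5.37, 4.23, 3.07 and 3.20 CPM. In both genes the groups overlapped, with log2 fold changes of 0.10 (95% interval -0.21 to 0.40) and -0.19 (-0.52 to 0.15). Cldn5, a tight junction protein of endothelium and also of Sertoli cells, stood at 3.26, 3.64, 3.98 and 4.11 CPM in the wild-type libraries. Under the knockout label it stood at 5.17, 5.06, 6.20 and 3.96 CPM, and knockout replicate 4 alone lay within the wild-type range. The log2 fold change of Cldn5 was 0.39 (SE 0.13, adjusted p = 0.056, and 0.018 without knockout replicate 4).

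Gja4, the connexin 37 of arterial endothelium, and Podxl, a sialomucin of the luminal surface, also had positive values that missed the threshold. Gja4 stood at 0.571 ± 0.153 and 0.872 ± 0.165 CPM (log2 fold change 0.36, adjusted p = 0.12) and Podxl at 2.78 ± 0.392 and 3.60 ± 0.545 CPM (log2 fold change 0.32, adjusted p = 0.11). Plvap, the diaphragm protein of fenestrated capillaries, and Robo4, an endothelial guidance receptor, had log2 fold changes of -0.25 and -0.18 (adjusted p = 0.31 and 0.51). The adhesion proteins Esam and Icam2 and the sialomucin Emcn lay close to 0, with log2 fold changes of -0.00, 0.03 and 0.11 and 95% intervals that reached -0.35 and 0.48.

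Of the 9 tested members of the Notch, ephrin, bone morphogenetic protein and peptide receptor groups, 0 passed limma, edgeR or DESeq2. An unadjusted p under 0.05 in limma was reached by 0 of the 9, against 30.2% of all tested genes. Jag1, a Notch ligand that cells other than endothelium also make, had the highest CPM of the list, at 28.8, 40.1, 31.2 and 40.7 CPM and at 31.0, 26.6, 34.5 and 36.3 CPM, with overlapping groups (adjusted p = 0.52). Notch4, the endothelial Notch receptor, stood at 12.5, 12.3, 13.3 and 10.4 CPM and at 12.4, 11.5, 12.4 and 13.2 CPM, with a narrow 95% interval for its log2 fold change (-0.15 to 0.22). Dll4, the Notch ligand of tip cells, stood at only 0.551 ± 0.103 and 0.708 ± 0.257 CPM.

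The arterial ephrin Efnb2 and its venous receptor Ephb4 had values of opposite sign that did not pass the test. Efnb2 stood at 12.1, 9.94, 9.69 and 12.3 CPM and at 13.1, 13.0, 12.2 and 11.8 CPM (log2 fold change 0.19, adjusted p = 0.20). Ephb4 stood at 4.38 ± 0.607 and 3.62 ± 0.164 CPM (log2 fold change -0.24, adjusted p = 0.17). Ephb4 shares 33 exon bases with the sperm protein gene Zan on the opposite strand, which stood at 81.7 ± 7.96 and 82.2 ± 5.07 CPM; the part of Zan in its value was not tested.

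Eng, a co-receptor of endothelial bone morphogenetic protein signals, stood at 5.85, 4.07, 4.29 and 4.61 CPM and at 6.16, 5.03, 4.16 and 4.02 CPM (log2 fold change 0.03). Acvrl1, the receptor ALK1 to which it couples, stood at 4.45, 2.45, 2.63 and 2.75 CPM and at 1.90, 2.60, 2.68 and 2.74 CPM, so replicate 1 was the highest library of one group and the lowest of the other (adjusted p = 0.37). Calcrl and Ramp2, which together form the receptor of adrenomedullin, stood at 0.958 ± 0.0667 and 1.024 ± 0.175 CPM and at 1.18 ± 0.398 and 1.25 ± 0.254 CPM (adjusted p = 0.81 and 0.80). Ramp2 shares 1103 exon bases (33.4% of its exons) with Vps25 on the same strand, so its level is uncertain.

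**Figure D3:**
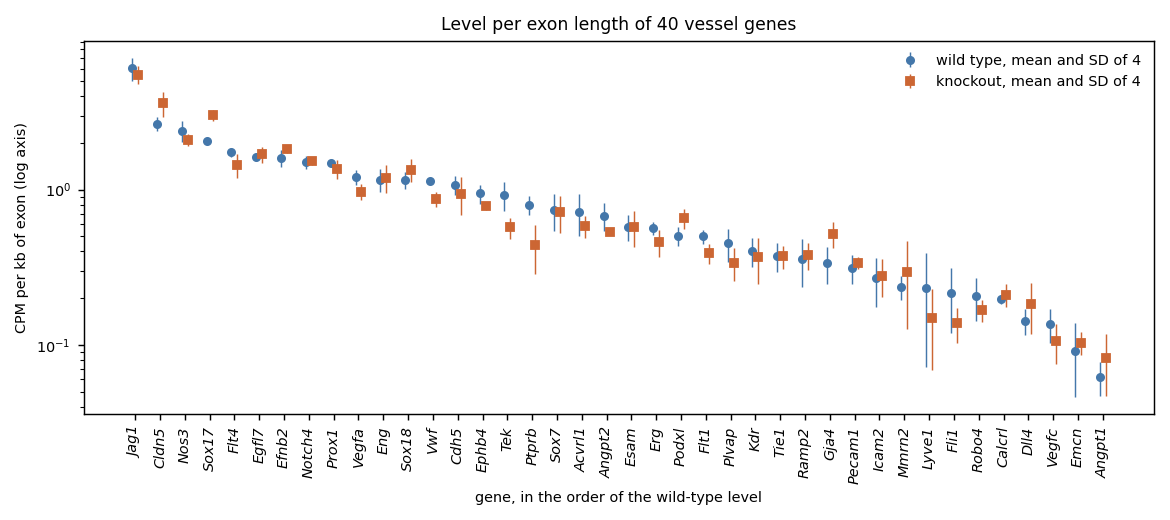
Mean CPM per kilobase of exon (log vertical axis) with the SD of 4 libraries for the 40 vessel genes, in the order of the wild-type level. Jag1 stands highest and Angpt1 lowest, while Pecam1, Tie1 and Kdr stand below Cdh5.

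Between genes, levels can be compared only per length. On the scale of CPM per kilobase of annotated exon, Jag1 stood highest in the wild-type group at 6.04 ± 1.04, followed by Cldn5 at 2.65 ± 0.269, Nos3 at 2.40 ± 0.381 and Sox17 at 2.07 ± 0.0828. Cldn5 and Nos3 did not differ beyond their spread, nor did Nos3 and Sox17. Flt4 (1.74 ± 0.111), Egfl7 (1.62 ± 0.0932), Efnb2 (1.61 ± 0.204), Notch4 (1.503 ± 0.149) and Prox1 (1.48 ± 0.0837) followed within a narrow range. The 10 defining markers of blood endothelium ranged from Egfl7, among these, over Cdh5 at 1.07 ± 0.146, Tek at 0.922 ± 0.194, Esam at 0.574 ± 0.108, Erg at 0.564 ± 0.0575, Flt1 at 0.5002 ± 0.0526, Kdr at 0.405 ± 0.0865, Tie1 at 0.375 ± 0.0799 and Pecam1 at 0.313 ± 0.0656 to Emcn. The lowest were Emcn at 0.0919 ± 0.0456 and Angpt1 at 0.0620 ± 0.0154. All 10 defining markers of blood endothelium had reads in every library, with summed levels of 29.7 to 35.4 CPM in the wild-type libraries and 23.8 to 32.6 CPM in the knockout libraries. The median CPM of a tested member was 2.98, against 9.17 for all tested genes. Of the 14 tested members with a mean under 2 CPM none was called, against 16.9% of all tested genes at any level. The share called among all tested genes under 2 CPM is not given here, so this count cannot be read as a trait of the members.

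Relative to the other endothelial markers, the called members kept their direction in the means. The sum of 9 such markers (the defining list without Tek) stood at 28.6 ± 1.98 and 26.3 ± 3.29 CPM. This quotient was chosen after the values were seen and is given as a description. The sum differed less between the groups than each called member did, so the members' own levels set the direction of the quotients. Tek made up 0.118, 0.157, 0.144 and 0.190 of that sum in the wild-type libraries and 0.1006, 0.1004, 0.1106 and 0.0964 in the knockout libraries, so the groups stayed apart. Sox17 stood at 0.322 to 0.394 and 0.483 to 0.734 of the sum, again apart. For Ptprb the quotient of knockout replicate 3 (0.325), and for Vwf that of knockout replicate 4 (0.661), lay inside the wild-type range of 0.305 to 0.426 and 0.604 to 0.701.

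**Figure D4:**
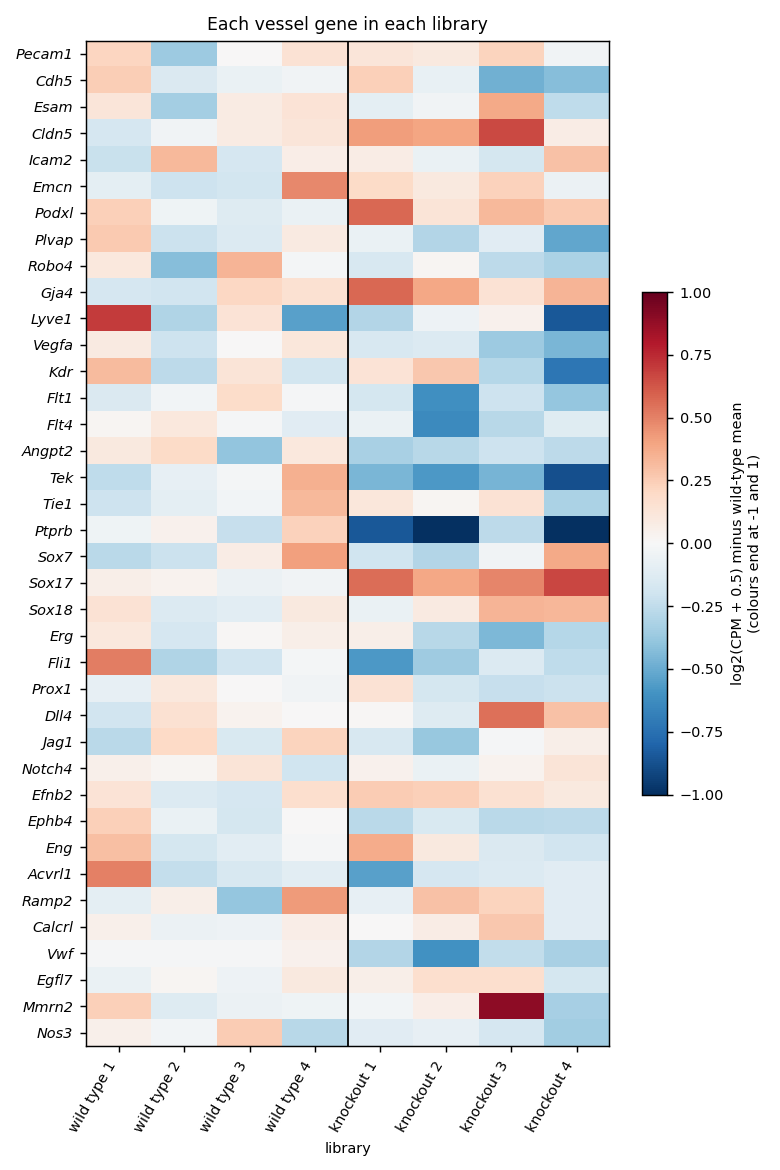
Deviation of log2(CPM + 0.5) from the wild-type mean (colour, ending at -1 and 1) for the 38 tested vessel genes (rows) in the 8 libraries (columns). Tek, Ptprb and Vwf are blue and Sox17 red in all 4 knockout columns, and knockout replicate 4 is the lowest library for 12 genes.

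The members did not move as a block across libraries. Their mean log2 level, relative to the wild-type mean, was 0.07, -0.09, -0.04 and 0.06 in wild-type replicates 1 to 4 and -0.03, -0.10, 0.01 and -0.18 in knockout replicates 1 to 4. Knockout replicate 4 was the lowest library for 12 of the 38 members, and wild-type replicate 4 the highest for 9. The same counts over all tested genes are not given here, so these describe the members alone. The mean difference of the members was -0.07, and -0.04 without knockout replicate 4. Each of the 4 called members was called in all 18 alternatives, including those that left out this library.

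Marker lists of other testis cells are given beside the vessel genes. Summed levels of 12 fibroblast and matrix markers were 194 to 229 CPM in the wild-type libraries and 99.4 to 141 CPM in the knockout libraries. Those of 12 peritubular myoid markers were 471 to 548 and 406 to 432 CPM, with 5 called lower. Of 12 Leydig cell markers 6 were called lower and 1 higher, with sums of 1234 to 1451 and 839.5 to 1270 CPM, which overlapped. Of all tested genes 8.32% were called lower and 8.62% higher. In knockout replicate 4 the mean log2 level was -0.93 for fibroblast and matrix, -0.46 for myoid and -0.42 for Leydig markers. It was -0.29 for Sertoli and -0.90 for adipocyte markers, beside -0.18 for the vessel genes. In knockout replicate 1 these lists stood, in the same order, at -0.58, -0.25, -0.50, -0.19 and -0.83, beside -0.03 for the vessel genes. Macrophage markers stood at -0.34 in knockout replicate 1 and -0.07 in knockout replicate 4, and 1 of 15 was called lower. Germ cell markers summed to 15126 to 15725 and 13136 to 15998 CPM, and the median of their log2 fold changes was -0.02. The part of these cells in the values of the vessel genes was not tested.

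**Figure D5:**
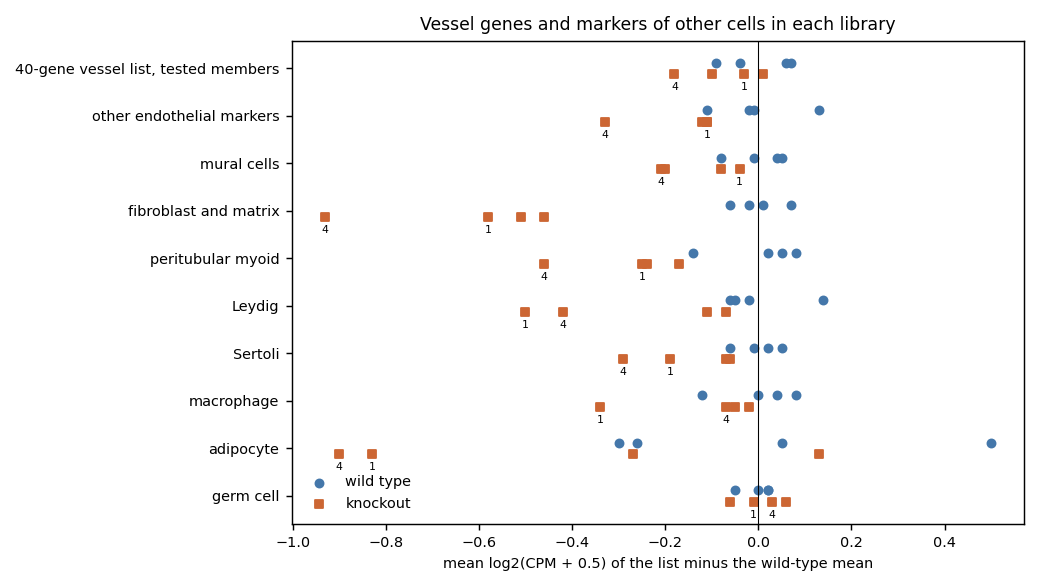
Mean log2(CPM + 0.5) of each gene list minus its wild-type mean (horizontal axis) in each library (blue circles wild type, orange squares knockout, numbers marking knockout replicates 1 and 4). The vessel genes lie between -0.18 and 0.07, while fibroblast and matrix markers lie between -0.93 and -0.46 in the knockout libraries.

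Beyond the members, 9 lists of related genes held 144 genes, of which 125 were tested. Of these, 17 fell and 4 rose, 16.8% in all against 16.9% of all tested genes. Their median log2 fold change was -0.09. The falls made up 13.6% of the tested genes against 8.32% of all genes, and the rises 3.2% against 8.62%. The lists were chosen with earlier results of these data known, so these shares are descriptions and were not tested. The same shares of all genes, 8.32% and 8.62%, stand beside the falls and rises of each list below. Among 10 tested ligands and co-receptors of the VEGF and semaphorin systems, 2 rose and 1 fell. Pgf, placental growth factor, a ligand of Flt1, rose from 2.11, 2.40, 3.02 and 3.09 CPM to 4.09, 3.78, 4.84 and 4.04 CPM (log2 fold change 0.58, adjusted p = 0.0076), with all knockout libraries above all wild-type ones. Plxnd1, a semaphorin receptor of vessels, rose from 12.95 ± 1.69 to 17.05 ± 1.22 CPM, and Sema3c, a secreted semaphorin, fell from 14.0 ± 1.29 to 9.91 ± 1.56 CPM.

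In the oxygen-sensing list, Hif1a was the 1 called gene of 12. This subunit of the hypoxia-inducible factor fell from 19.4 ± 0.470 to 16.2 ± 1.49 CPM (log2 fold change -0.26, adjusted p = 0.029), and the call was lost without wild-type replicate 1, 2 or 3 and without knockout replicate 3 or 4. Its partner Arnt and its relative Epas1 were not called (adjusted p = 0.79 and 0.52). Slc2a1, the glucose transporter and a hypoxia target, stood at 8.99, 7.08, 9.30 and 9.75 CPM and at 7.38, 7.35, 7.55 and 6.29 CPM (adjusted p = 0.10).

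Of 13 tested Notch receptors, ligands and targets outside the members, 2 fell. Dll1, a Notch ligand, showed the clearer fall: 5.19, 5.54, 5.07 and 4.59 CPM in the wild-type libraries against 2.37, 1.83, 1.84 and 2.04 CPM in the knockout libraries. That is 2.53-fold lower, with a log2 fold change of -1.16 and an adjusted p of 1.2e-05, and the 4 values of each group lay close together. Notch3, the receptor of mural cells, fell from 2.67 ± 0.927 to 1.37 ± 0.391 CPM with overlapping groups (adjusted p = 0.03), and its call was lost with no variance trend and without wild-type replicate 1, 3 or 4 or knockout replicate 2 or 4.

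The ephrin list held 3 falls among 8 tested genes, all of them receptors: Ephb3 from 4.39 ± 0.651 to 2.94 ± 0.390 CPM, Epha2 from 3.03 ± 0.274 to 1.93 ± 0.468 CPM and Ephb2 from 2.06 ± 0.197 to 1.39 ± 0.152 CPM. Ephb3 lost its call without wild-type replicate 4, Epha2 without wild-type replicate 1 or knockout replicate 4, and Ephb2 with the replicate block and without wild-type replicate 2 or 4 or knockout replicate 3 or 4. Among 14 tested genes of bone morphogenetic protein signalling, Smad9, a receptor-activated signal carrier, fell from 2.88 ± 0.352 to 1.81 ± 0.232 CPM. Tmem100, an endothelial target of Acvrl1, fell from 1.34, 1.01, 0.936 and 1.49 CPM to 0.555, 0.572, 0.613 and 0.640 CPM (log2 fold change -0.62, adjusted p = 0.0083). The knockout values of Tmem100 lay close together, below every wild-type value.

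Transcription regulators of endothelium outside the members went both ways, with 2 of 16 higher and 1 lower. Etv2, the ETS factor that starts the endothelial programme in the embryo, rose from 3.38, 3.96, 3.47 and 4.74 CPM to 6.92, 5.46, 7.33 and 8.18 CPM (1.79-fold, log2 fold change 0.77, adjusted p = 0.0013). Which cells of the testis gave the Etv2 reads was not tested. Hhex, a homeobox factor of early endothelium, rose from 1.40 ± 0.280 to 2.48 ± 0.551 CPM with overlapping groups. Gata2 fell from 31.1 ± 2.17 to 26.0 ± 0.868 CPM, a call that was lost without wild-type replicate 1.

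Of 29 other endothelial markers tested, 4 fell. Cd34, a sialomucin of capillary endothelium and of stromal cells, fell from 15.04, 11.7, 14.0 and 11.9 CPM to 7.91, 8.98, 9.62 and 7.13 CPM (log2 fold change -0.62, adjusted p = 0.0013), with every knockout library below every wild-type one. Pdpn, a mucin of lymphatic endothelium and of other cells, fell from 4.31 ± 0.843 to 2.28 ± 0.725 CPM. Ccl21a, a chemokine of lymphatic endothelium with close gene copies, fell from 6.59, 5.29, 2.93 and 6.81 CPM to 2.83, 2.52, 2.10 and 0.291 CPM (adjusted p = 0.019), a call lost with DESeq2, with no variance trend and without wild-type replicate 1 or 4. Selp, the P-selectin of endothelium and platelets, fell from 1.07 ± 0.265 to 0.548 ± 0.233 CPM, a call lost with no variance trend and without any 1 library except knockout replicate 2 or 3. Over the 6 lymphatic endothelial markers (Prox1, Lyve1, Flt4, Pdpn, Ccl21a and Mmrn1), 2 of 5 tested genes fell, Pdpn and Ccl21a, and the median log2 fold change was -0.29. The mean log2 level of that list, relative to the wild-type mean, was 0.22, -0.08, -0.13 and -0.01 in wild-type replicates 1 to 4 and -0.32, -0.43, -0.52 and -1.05 in knockout replicates 1 to 4. Prox1, Lyve1 and Flt4 had negative log2 fold changes that did not pass the test (-0.12, -0.29 and -0.27), and differences between these genes were not tested.

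Among 11 inhibitors of vessel growth, Vash1, a vasohibin that endothelium makes on VEGF stimulation, fell from 7.72 ± 1.08 to 4.66 ± 0.663 CPM (log2 fold change -0.67, adjusted p = 0.0019). Thbs2, thrombospondin 2, fell from 1.04 ± 0.181 to 0.637 ± 0.132 CPM (adjusted p = 0.047), a call lost with quantile normalization, the replicate block, DESeq2 and without any 1 library except knockout replicate 3. Of 13 tested mural cell genes, which mark the pericytes and smooth muscle around vessels, 2 fell, Notch3 and Cnn1, a calponin of smooth muscle that peritubular myoid cells also make. Cnn1 went from 4.98 ± 0.874 to 3.13 ± 0.118 CPM (adjusted p = 0.0054).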

How the data were processed

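RNA of adult testis was sequenced in 4 libraries labelled Kpna2 knockout and 4 labelled wild type, with RNA taken up in TRIzol and TruSeq libraries, as the labels' protocols state. Trimmomatic, Subread, featureCounts and the build GRCm39 (mm39) come from the submitters' processing notes. Versions, annotation release, strand setting and handling of multiply matching reads are not stated in those notes or labels. The authors deposited a signal per gene, named CPM, whose columns (control and kpn, 1 to 4) sum to 990244 to 1025489. They were matched to titles by number, taking control as wild type. Dividing each column by its smallest value above 0 gave whole reads for 100% of values (tolerance 0.01); 3 reads equal 0.0786 to 0.0968 CPM, for counting error only. Replicate pairs differed beyond sampling noise (chi-square per degree of freedom 4.60 to 11.6).

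Genes were compared by limma 3.58.1 (R 4.3.3), using a trend of variance with level, on log2(CPM + 0.5) of the 22027 genes whose mean reached 0.5 CPM, adjusted by Benjamini-Hochberg and called under 0.05. The plan had assumed plain CPM, and its log-scale test was kept. As alternatives, recovered reads were tested by DESeq2 1.42.0 and by the quasi-likelihood method of edgeR 4.0.16: edgeR called 3694 genes in all (16.8%). On simulated counts for these 22027 genes, limma recovered 74.6% of 67 planted 1.5-fold and 94% of 67 planted 2-fold changes. Every gene was simulated with the same dispersion, and the planted genes were drawn from all tested genes. The members stood lower (median 2.98 against 9.17 CPM), so these shares do not give the recovery for the members. Symbols were found for 24890 identifiers; gene positions and exon lengths came from GENCODE M21 on GRCm38, another build than the authors', and promoters from RefSeq. Named were all members, with each library's value for called members and the leading members of each role, and the called genes of the related lists, up to 4 in each direction. Members and lists were chosen with earlier results of these data known. The overlapping genes and Slc2a1, Arnt, Epas1 and Vegfd were named beside them after their values were seen.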

Additional observations from a re-analysis of the deposited data

Results flagged for a closer look

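In 8 of 80 groups of 4 libraries of the 40 vessel genes, the highest or lowest CPM stood apart by the gap test at the 95% level; chance flags about 1 in 20 groups. Of the called members this touched Vwf, whose wild-type replicate 4 was the highest of its group at 18.7 CPM, above 3 nearly equal libraries. Acvrl1 was flagged in both groups, with wild-type replicate 1 highest at 4.45 CPM and knockout replicate 1 lowest at 1.90 CPM. Prox1 stood highest in knockout replicate 1 at 13.8 CPM, Ephb4 highest in knockout replicate 2 at 3.86 CPM, and Emcn highest in wild-type replicate 4 at 0.865 CPM. Esam stood lowest in wild-type replicate 2 at 1.18 CPM and Vegfc lowest in wild-type replicate 3 at 0.211 CPM.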

How the results depend on the processing

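Tek, Ptprb, Vwf and Sox17 kept their direction and their call in all 18 alternatives, with adjusted p between 2.2e-07 (Sox17) and 0.038 (Tek). The number of members called was 4 to 6, and 4 to 5 when 1 library was left out. The number of all genes called was 2788 to 3572 when 1 library was left out and 2997 to 4073 otherwise. With the replicate number as a block it was 3446, with 4 members called. Over the tested genes, same-numbered libraries did not deviate together (correlations -0.0308 to 0.0386), so no pairing by number was seen. A pairing that touches few genes would not show in these correlations. Over 666 recomputed member values, 634 kept direction and side of the threshold, 6 became called (Cldn5 in 3, Flt1 in 2, Angpt2 in 1) and 26 changed sign, all of them in 11 members that were not called. Esam was 0.00, 0.02 and 0.00 under median-ratio scaling, quantile normalization and DESeq2, and Tie1 0.01 under quantile normalization. When each library was left out in turn, the log2 fold changes of these members ranged from -0.02 to 0.17 for Pecam1 and -0.13 to 0.08 for Esam. The ranges were -0.04 to 0.10 for Icam2, -0.29 to 0.04 for Kdr, -0.08 to 0.10 for Tie1 and -0.17 to 0.10 for Sox7. They were -0.03 to 0.08 for Notch4, -0.08 to 0.13 for Eng and -0.05 to 0.22 for Ramp2. For Calcrl the range was -0.01 to 0.12, and for Mmrn2 -0.10 to 0.31. Icam2 fell under the filter without wild-type replicate 2 or knockout replicate 4, its highest library in each group, so its range leaves out these fits. The cause of the sign changes was not tested. Of 162 recomputed counts in the related lists, 32 moved by over 1.5 times. Whether depth bears on the 14 tested members with a mean under 2 CPM, of which 0 were called, was not tested. The share called among all tested genes this low is not given here.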
